A study of Homo sapiens with 8 samples.

Results

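CXCR4 and the chemokines made by epithelial cells were followed at the RNA level in HT-29, an established human colorectal adenocarcinoma cell line. The genes are CXCR4, its companion receptor ACKR3, and the ligands CXCL1, CXCL2, CXCL3, CXCL8, CXCL16, CX3CL1, CCL15 and CCL20. These 10 symbols were chosen on the difference between the groups in these same libraries, so their differences are given as a description, with no test. Of the 10, 9 were matched to a row among the 48162 gene identifiers, 7 had enough counts to enter the fit, and CCL15 was not analysed here.

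The study compared 4 libraries of wild-type HT-29 cells (WT) with 4 libraries of a MIEN1 knockout line, labelled HT-29-pMIEN1-X (MIEN1_KO). The knockout cells came from wild-type cells electroporated with plasmids for Cas9 and a pair of MIEN1 guide RNAs labelled 5′ and 3′. They were selected with puromycin for 48 hours, diluted to single cells and expanded as clones. Whether the WT cells went through the same electroporation, selection and cloning is not given in the sources used here, nor is the number of clones sequenced, so the edit and the clonal history cannot be told apart. Each replicate pooled RNA from 4 dishes of 1 group, and poly-A RNA was sequenced. All groups share the medium with serum, and no chemokine or cytokine was added.

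Chemokines are small secreted proteins that steer cells through G protein-coupled receptors. CXCR4 is the receptor for CXCL12 and is known in colorectal cancer for its part in migration and spread, while ACKR3 binds CXCL12 without G protein signalling. CXCL1, CXCL2, CXCL3 and CXCL8 attract neutrophils through CXCR2, and NF-kB is a known activator of their genes. CXCL16 and CX3CL1 are made as membrane proteins that proteases can shed, and CCL20 draws cells that carry CCR6.

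The 4 neutrophil-attracting ligands lie in 1 cluster on chromosome 4, and the start-site windows of these genes and of CXCR4 are printed because they show which promoters resemble each other. Each window runs 5′ to 3′ on the gene's own strand, from 250 bases before the RefSeq start to 50 after it (GRCh38.p14), and capitals mark the letters found by the motif search. CXCR4 has 3 such windows in RefSeq, of which the first listed is shown (chr2:136118100-136118399, minus strand). The others are CXCL1 (chr4:73869143-73869442, plus strand), CXCL2 (chr4:74099146-74099445, minus strand), CXCL3 (chr4:74038640-74038939, minus strand) and CXCL8 (chr4:73740319-73740618, plus strand).
CXCR4: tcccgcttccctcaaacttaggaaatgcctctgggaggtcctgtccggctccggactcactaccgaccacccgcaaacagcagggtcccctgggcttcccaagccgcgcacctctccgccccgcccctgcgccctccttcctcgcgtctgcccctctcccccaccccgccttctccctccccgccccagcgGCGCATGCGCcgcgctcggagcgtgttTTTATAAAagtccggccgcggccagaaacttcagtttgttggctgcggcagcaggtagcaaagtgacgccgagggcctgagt
CXCL1: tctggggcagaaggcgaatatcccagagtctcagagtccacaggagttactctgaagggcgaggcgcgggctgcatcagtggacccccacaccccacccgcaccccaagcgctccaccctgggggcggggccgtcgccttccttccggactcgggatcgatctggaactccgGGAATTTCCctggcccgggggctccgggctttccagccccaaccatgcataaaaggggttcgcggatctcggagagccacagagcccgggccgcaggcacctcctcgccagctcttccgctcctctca
CXCL2: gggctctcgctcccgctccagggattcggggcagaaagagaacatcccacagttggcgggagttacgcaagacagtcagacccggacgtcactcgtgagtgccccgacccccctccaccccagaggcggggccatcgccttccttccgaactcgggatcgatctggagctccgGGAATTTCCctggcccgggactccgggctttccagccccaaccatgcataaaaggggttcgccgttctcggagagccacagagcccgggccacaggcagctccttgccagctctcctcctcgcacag
CXCL3: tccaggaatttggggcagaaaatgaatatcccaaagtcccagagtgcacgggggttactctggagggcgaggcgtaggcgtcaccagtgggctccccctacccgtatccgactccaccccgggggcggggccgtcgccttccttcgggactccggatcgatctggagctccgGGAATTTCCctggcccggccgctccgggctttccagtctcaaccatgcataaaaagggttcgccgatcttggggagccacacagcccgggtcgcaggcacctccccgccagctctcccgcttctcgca
CXCL8: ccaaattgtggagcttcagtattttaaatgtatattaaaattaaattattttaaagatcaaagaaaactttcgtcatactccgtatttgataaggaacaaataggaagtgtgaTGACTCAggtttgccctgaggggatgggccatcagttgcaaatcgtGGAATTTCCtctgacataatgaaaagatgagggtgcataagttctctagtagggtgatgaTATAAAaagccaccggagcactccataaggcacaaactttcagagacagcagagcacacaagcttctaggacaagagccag
The letters searched, each on both strands, are named with their matches in the paragraph that follows.

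The NF-kB letters GGAATTTCC stood in 0.461% of all 35116 RefSeq windows of 300 bases, and in each of the windows of CXCL1, CXCL2, CXCL3 and CXCL8. Their first base lay 78 bases before the start in CXCL1 and CXCL3, 77 in CXCL2 and 91 in CXCL8. The NRF1 letters GCATGCGC stood in 3.05% of windows, and in CXCR4 on both strands as an overlapping pair 59 and 57 bases before the start. The AP-1 letters TGACTCA stood in 4.95% of windows and in CXCL8, and TATAAA stood in 11.5% of windows. TATAAA was found in the windows of CXCL8, CCL15 and CCL20, and on both strands, overlapping, in CXCR4. The hypoxia letters ACGTG stood in 21.4% of windows and in none of the 9 windows found for 7 of the 10 genes. The CXCL1 and CXCL3 windows were identical at 82.5% of aligned columns, CXCL1 and CXCL2 at 69.8%, and CXCL2 and CXCL3 at 73.7%. CXCL8 was identical to those 3 at 43.1% to 44.2%. A match of letters is a description and was not tested as a binding site.

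The libraries held 21940903 to 25148790 counts, and levels are given as CPM, a gene's counts relative to the scaled total of its library. MIEN1 itself had 471 to 594 counts in the WT libraries and 15 to 23 in the knockout libraries, a mean of 3.72% of WT (exact two-sided permutation test, p = 0.0286, the smallest that 70 assignments of the 8 libraries can give). MIEN1_KO replicate 4 stood apart from the other knockout libraries, with a chi-square per degree of freedom of 29.3 to 33.5 against them, where those 3 differed from each other by 3.42 to 13.2. Of 14228 genes tested with edgeR's quasi-likelihood test, 41.7% were called at a Benjamini-Hochberg adjusted p under 0.05, 21.0% higher and 20.7% lower in MIEN1_KO, and 41.0% had no overlap between the groups' libraries. That split was 2981 higher and 2952 lower, and 2468 higher and 3752 lower with upper-quartile scaling. The epithelial marker list summed to 11121 to 11653 CPM in WT and 13970 to 17659 in MIEN1_KO, with 4 of 10 markers called higher and 3 lower. Most of that sum was KRT8, called higher, with a mean of 7237 CPM in WT and 10237 in MIEN1_KO. EPCAM, CDH1 and VIL1 were not called. Of the 3 called lower, LGALS4 went from 803 to 377 CPM, the intestinal factor CDX2 from 6.19 to 0.273 CPM and CDX1 from 0.823 to 0.0116 CPM. The part of this in the results was not tested. The 10 leukocyte markers summed to 896 to 935 CPM in WT and 722 to 782 in MIEN1_KO, nearly all of it LYZ, which epithelial cells can also make. The leukocyte markers CD68 and FCGR3B were at 0 in all 8 libraries, and PTPRC had 0 counts in WT and 2 in MIEN1_KO. Another marker of that list, ITGAM, had 190 counts in WT and 22 in MIEN1_KO (log2 fold change -3.01, adjusted p = 1.39e-06, edgeR), and CD14 had 348 and 349. The fibroblast list summed to 2.18 to 3.45 CPM in WT and 3.51 to 5.05 in MIEN1_KO, with COL3A1 at 0. Of its genes, COL1A1 had 241 counts in WT and 372 in MIEN1_KO, and LUM 32 and 2. The endothelial list, in which PECAM1 was not matched, summed to 1.94 to 2.40 and 0.324 to 0.924 CPM with KDR at 0. TEK had 202 counts in WT and 56 in MIEN1_KO. COL1A1 was called higher (log2 fold change 0.70) and TEK lower (-1.77), and the COL1A1 call ended with the centred GC correction.

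CXCR4 RNA was close to absent from the knockout libraries. The WT libraries held 391, 463, 435 and 365 CXCR4 counts, and the MIEN1_KO libraries held 1, 0, 0 and 0. This is 17.2 ± 1.14 CPM (SD, n = 4) in WT, and 1 read in all 4 knockout libraries together. The pooled ratio of WT to MIEN1_KO was 1570, with an exact 95% counting interval of 281.5 to 62065 that covers counting error only. Without MIEN1_KO replicate 1, which holds the single count, the knockout group is at 0 and WT was at least 382-fold higher, taking a floor of 3 counts over the group. In bulk RNA, fewer cells with a transcript and less of it per cell cannot be told apart.

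Few other abundant genes behaved this way. Of 9075 genes with a WT mean of at least 10 CPM, 2 had at most 1 count over the 4 knockout libraries, CXCR4 and the long noncoding RNA LINC00261, and 6 had at most 10 counts. The cut of 1 count is the level of CXCR4 itself, which was chosen on this contrast. These numbers are therefore a description. LINC00261 also had the profile most like CXCR4, with a root mean square difference in log2 CPM of 0.333 over the 8 libraries. It went from 15.4 ± 0.831 CPM to 1 count in all. AUTS2 followed at 0.553, then HEPH, the copper-dependent iron oxidase hephaestin, at 0.599. REG4, which encodes a lectin that goblet and endocrine cells of the gut release, came next at 0.632 and ST6GAL1, a Golgi sialyltransferase, at 0.722. These 5 genes lie on chromosomes 20, 7, X, 1 and 3, and CXCR4 lies on chromosome 2.

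The tested genes nearest to CXCR4 still gave RNA in the knockout libraries. The closest tested gene on the lower-coordinate side, DARS, which encodes a cytosolic aspartyl-tRNA synthetase, fell from 63.4 ± 3.43 CPM in WT to 47.7 ± 2.94 in MIEN1_KO (log2 fold change -0.41, SE 0.070, adjusted p = 0.000419, edgeR). On the other side HNMT, the histamine N-methyltransferase, fell from 24.2 ± 0.497 to 18.2 ± 1.20 CPM (log2 fold change -0.41, adjusted p = 0.000591, edgeR). HNMT starts 1850 kb from the CXCR4 start, and no nearer named gene on that side was tested. MCM6, UBXN4 and SPOPL did not pass the test (log2 fold changes -0.10, -0.17 and -0.14). KYNU, named after its values were seen, fell by 0.56 on the log2 scale. All 6 values were thus below 0. DARS, HNMT and KYNU were called lower, where 20.7% of all tested genes were. The HNMT and KYNU calls ended with both forms of GC correction and the DARS call with the planned form. None of these 6 genes, the farthest of which starts 6763 kb away, came near 0.

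**Figure D1:**
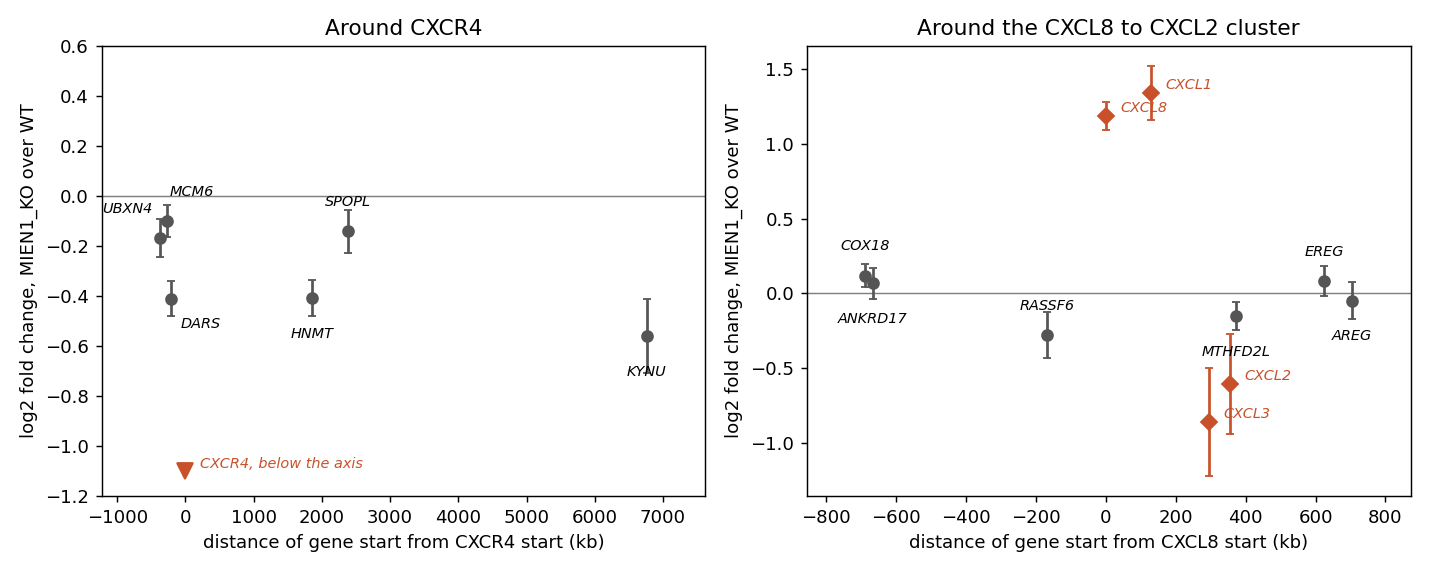
Log2 fold change of MIEN1_KO over WT (vertical axis) against the distance of each gene's start from CXCR4 (left) or CXCL8 (right), in kb. Circles are the nearest tested genes and diamonds the chemokines, with bars of ± 1 SE; the triangle marks CXCR4, whose value lies below the axis. The 6 neighbours of the chemokine cluster lie between -0.28 and 0.12, while CXCL8 and CXCL1 lie above 1 and CXCL3 and CXCL2 below 0.

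ACKR3 had 0 counts in all 8 libraries, which allows up to 0.0312 CPM in WT and 0.0329 CPM in MIEN1_KO (3 counts over the group). The ligand of both receptors, CXCL12, was also at 0 in all 8. Of the 21 other chemokine receptors, 6 were at 0 throughout and 3 had enough counts to test. CCRL2, a receptor that presents chemerin and does not signal like the classical ones, had a mean of 4.75 ± 0.687 CPM in WT and fell to 3.34 ± 0.328 CPM (log2 fold change -0.51, adjusted p = 0.00771, edgeR). CXCR3 and the scavenger ACKR4 were not called. CXCR1 and CXCR2, through which CXCL8 and its relatives act, had 1 count each over all 8 libraries, and CX3CR1, the receptor of CX3CL1, had none. CXCR6, which binds CXCL16, had 35 counts in WT and 38 in MIEN1_KO.

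Among the ligands of the chromosome 4 cluster, the levels did not move together. CXCL8 had 142, 144, 165 and 143 counts in the WT libraries and 328, 344, 283 and 332 in MIEN1_KO. Each knockout library lay above each WT library. The mean went from 6.20 ± 0.571 to 14.1 ± 0.987 CPM, a log2 fold change of 1.19 (SE 0.095, n = 4 a group). CXCL1 had 41, 51, 42 and 32 counts in WT against 103, 85, 84 and 126, again with no overlap, and its mean went from 1.72 ± 0.238 to 4.39 ± 1.01 CPM (log2 fold change 1.34, SE 0.18). The highest CXCL1 value came from MIEN1_KO replicate 4, and without it the log2 fold change was 1.20.

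CXCL2 and CXCL3 lay on the other side of 0, with overlapping libraries. CXCL2 had 15, 14, 20 and 9 counts in WT and 14, 9, 5 and 8 in MIEN1_KO (log2 fold change -0.61, SE 0.33). CXCL3 had 36, 17, 38 and 24 counts in WT and 16, 13, 6 and 25 in MIEN1_KO (log2 fold change -0.86, SE 0.36). The overlap for CXCL3 comes from WT replicate 2, which is low, and MIEN1_KO replicate 4, which is high. Its log2 fold change was -1.06 without the first and -1.23 without the second.

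The balance within the cluster was compared inside each library, where the scaling between libraries cancels. The ratio of CXCL1 to CXCL3 counts ran from 1.11 to 3 in the WT libraries and from 5.04 to 14 in the knockout libraries. The ratio of CXCL1 to CXCL2 ran from 2.1 to 3.64 and from 7.36 to 16.8. Neither pair of ranges overlapped. The ratio of CXCL8 to CXCL1 ran from 2.82 to 4.47 in WT and from 2.63 to 4.05 in MIEN1_KO, and those ranges overlapped. CXCL1, CXCL2 and CXCL3 are paralogs: 4.81%, 12.5% and 6.01% of their 50-base exon stretches occur in another gene, so reads there could be split or dropped, while CXCL8 shares none.

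**Figure D2:**
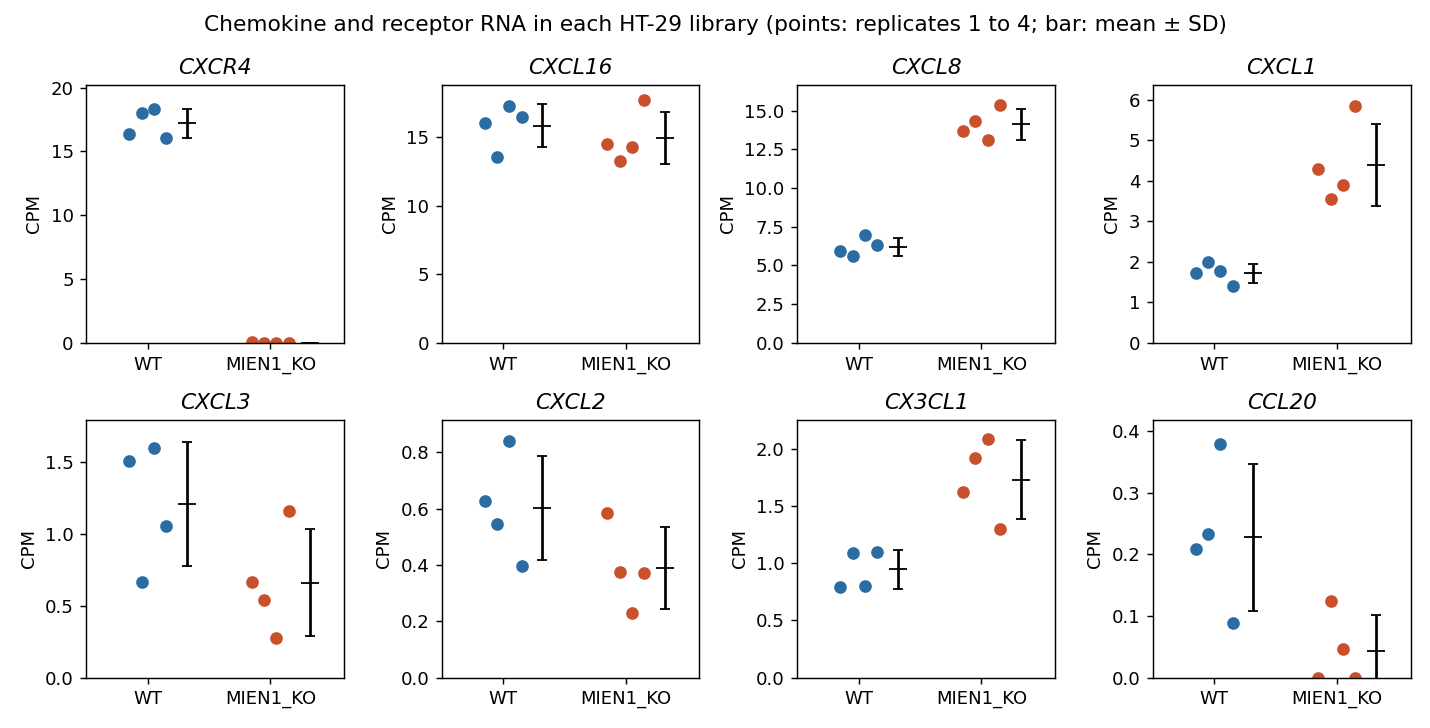
CPM (vertical axis, from 0) of 8 genes in the 4 WT and 4 MIEN1_KO libraries; points are replicates 1 to 4, and the bar is the mean ± SD. CXCR4, CXCL8, CXCL1 and CX3CL1 show no overlap between groups, while CXCL16, CXCL3, CXCL2 and CCL20 overlap.

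No tested gene outside the cluster on either side was called: RASSF6, ANKRD17, COX18, MTHFD2L, EREG and AREG had log2 fold changes from -0.28 to 0.12. Inside it, CXCL6, another neutrophil attractant, had 47 counts in WT and 11 in MIEN1_KO, too few for the filter. It was chosen for mention after its values were seen. With no filter, or in DESeq2's Wald test, it was called lower (log2 fold change -1.98 and -2.01). All 56 tested genes whose windows hold GGAATTTCC, the CXCL genes included, gave 10 called higher and 10 called lower, 17.9% each way against 21.0% and 20.7% of all tested genes, with a median log2 fold change of -0.02, the same as the -0.02 of all tested genes.

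The membrane-bound ligands differed from each other. CXCL16 had 384, 349, 410 and 375 counts in WT and 348, 318, 310 and 382 in MIEN1_KO, with overlapping libraries (15.9 ± 1.59 and 14.9 ± 1.91 CPM, log2 fold change -0.09, SE 0.10). CX3CL1 had 19, 28, 19 and 25 counts in WT and 39, 46, 45 and 28 in MIEN1_KO. Its CPM did not overlap, from 0.946 ± 0.172 to 1.73 ± 0.345, and MIEN1_KO replicate 4 was the lowest of the knockout libraries. The log2 fold change was 0.87 (SE 0.21), and 1.00 without that library. An end of CXCL16, 85 exon bases, overlaps MED11 on the opposite strand, and MED11 was not called.

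CCL20, the ligand of CCR6, stayed under the filter, with 5, 6, 9 and 2 counts in WT and 0, 3, 1 and 0 in MIEN1_KO. The pooled ratio of WT to MIEN1_KO was 5.22 (exact 95% counting interval 1.77 to 20.8), and the libraries overlapped. It was 15.4 without MIEN1_KO replicate 2. Its receptor CCR6 had 23 counts in WT and 6 in MIEN1_KO.

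In all, 3 of the 7 genes in the fit were called higher (CXCL1, CXCL8, CX3CL1), against 21.0% of all genes, and 1 lower (CXCR4), against 20.7%, and 4 had no overlap, against 41.0%. CXCL3 was also called lower with upper-quartile factors, with no filter, and without WT replicate 2 or MIEN1_KO replicate 4. CCL20 was called lower with no filter, and CXCL16 with the centred GC correction, alone and with the replicate block. Nothing is read from these counts and calls, since the genes were chosen on this contrast.

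Per kb of exon, which allows levels to be compared between genes, CXCR4 had the highest WT mean of the group, at 7.73 CPM per kb. CXCL16 followed at 5.67, CXCL8 at 2.72 and CXCL1 at 1.33 CPM per kb, and the ranges of these 4 did not overlap. CXCL3 at 0.543 and CXCL2 at 0.402 CPM per kb overlapped in their WT libraries, as did CX3CL1 at 0.158 and CCL20 at 0.143. In MIEN1_KO, CXCL8 had the highest mean, 6.21 CPM per kb, and overlapped CXCL16 at 5.35. CXCL1 followed at 3.39 CPM per kb. CXCL3 at 0.298, CX3CL1 at 0.289 and CXCL2 at 0.260 CPM per kb overlapped each other. CCL20 at 0.0269 and CXCR4 at 0.00468 CPM per kb overlapped and rest on 4 counts and 1 count, and ACKR3 was at 0 in both groups.

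**Figure D3:**
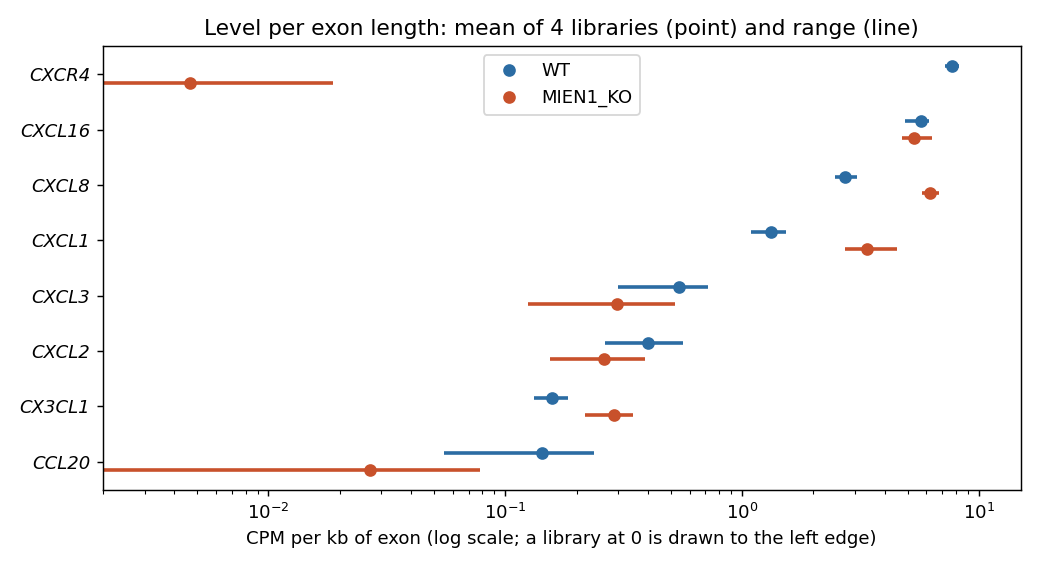
Mean (point) and range (line) of 4 libraries in CPM per kb of exon, on a log axis, for WT and MIEN1_KO; a line that reaches the left edge includes libraries at 0. CXCR4 is the highest in WT, at 7.73, and in MIEN1_KO it has the lowest mean of the 8 genes drawn, at 0.00468, with a range that overlaps that of CCL20; ACKR3, at 0, is not drawn.

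Other ligands of the family gave little signal. Of 41 listed, 29 were matched, 16 of those were at 0 in all 8 libraries, and 3 were tested. CXCL17, a mucosal chemokine-like protein, fell from 1.30 ± 0.120 CPM in WT to 0.176 ± 0.0837 in MIEN1_KO (log2 fold change -2.85, SE 0.29, adjusted p = 5.41e-06, edgeR). CCL28, which draws antibody-secreting cells to mucosa, went from 3.74 ± 0.656 to 2.97 ± 0.365 CPM and was not called, nor was CXCL11. CCL28 was called lower with upper-quartile scaling (log2 fold change -0.39).

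The machinery around CXCR4 was measured in all 28 listed genes, of which 9 were called higher, 8 lower and 11 not, with a median log2 fold change of 0.07. Of all tested genes, 21.0% were called higher and 20.7% lower. The list had 6 higher and 8 lower with upper-quartile scaling, 13 and 6 with the planned GC correction, and 11 called in place of 17 without WT replicate 3. DPP4, the peptidase that inactivates CXCL12, fell from 40.9 ± 2.03 to 16.7 ± 1.64 CPM (log2 fold change -1.29, adjusted p = 4.31e-08, edgeR). Among the receptor kinases, GRK5 and GRK3 fell by 1.06 and 0.70 on the log2 scale. GRK2 and GRK6, named after their values were seen, rose by 0.35 and 0.30. The GRK2 call ended in 3 of the alternatives. The GRK6 call ended in 2 alternatives besides the centred GC fits, where its sign turned. GNAI1, an inhibitory G protein alpha subunit, fell by 0.66. Named after their values were seen, GNAI2, another inhibitory alpha subunit, rose by 0.35, HGS, which sorts ubiquitinated receptors to lysosomes, rose by 0.51, and CD74, a receptor for MIF, fell by 0.59. The arrestins ARRB1 and ARRB2 were not called. The ligand MIF was not called either, on 62 counts in WT and 80 in MIEN1_KO (log2 fold change 0.44, SE 0.25). The ubiquitin ligase ITCH fell by 0.21, a call that ended with DESeq2 size factors and on leaving out any 1 of 6 libraries, and a sign that turned with a GC correction (0.079).

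Among 6 factors known to act on the CXCR4 gene, 1 was called higher and 1 lower, against 21.0% and 20.7% of all genes. FOXC1, a forkhead activator of CXCR4, rose from 17.4 ± 1.12 to 27.3 ± 5.92 CPM (log2 fold change 0.65, adjusted p = 0.00102, edgeR). EPAS1, which encodes HIF-2 alpha, fell from 29.9 ± 0.792 to 17.1 ± 1.72 CPM (log2 fold change -0.81, adjusted p = 4.06e-06, edgeR). NRF1, YY1, HIF1A and VHL were not called, with log2 fold changes from -0.06 to 0.11. Without MIEN1_KO replicate 4, 4 of the 6 were called.

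Genes of the NF-kB, TNF, IL-1, IL-17 and Toll-like inputs to chemokine genes were called higher in 10 of 26 tested cases and lower in 3, with a median log2 fold change of 0.14 against -0.02 for all genes, of which 21.0% were higher and 20.7% lower. The split was 9 higher and 5 lower with upper-quartile scaling, 8 and 4 with the centred GC correction, and 7 and 4 with that correction and the replicate block. IRAK1, the kinase below IL-1 and Toll-like receptors, rose from 814 ± 55.5 CPM in WT to 1530.2 ± 239.7 in MIEN1_KO (log2 fold change 0.91, adjusted p = 1.09e-05, edgeR). CEBPB, a transcription factor of inflammatory genes, rose by 0.90 and the TNF receptor TNFRSF1A by 0.52. TRAF3IP2, the adaptor of the IL-17 receptor, fell by 0.81. Of genes named after their values were seen, RELA rose by 0.36, MYD88 by 0.40, IL17RA by 0.33, IL17RC by 0.48 and NFKBIZ by 0.20. Chosen in the same way, the NF-kB inhibitor TNFAIP3 fell by 0.69 and IL1RAP by 0.47. The NFKBIZ call ended in 9 of the alternatives, upper-quartile scaling among them, the IL17RC call in the centred GC correction, the IL17RA call in that correction with the replicate block, and the TNFAIP3 call without WT replicate 4. NFKB1 and NFKBIA were not called. TNF had 4 counts in WT and 1 in MIEN1_KO, IL1B had 4 in each group, and TLR2 had none.

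Of 7 RNA-binding proteins that act on chemokine mRNA, 4 were called higher and 0 lower, where 21.0% and 20.7% of all genes were. Upper-quartile scaling gave 3 higher and 1 lower, the planned GC correction 5 and 1, the centred form 3 and 2, and the centred form with the replicate block 2 and 2. ZFP36L1, which promotes decay of AU-rich mRNA, rose by 0.39 on the log2 scale, the decay factor KHSRP by 0.37, the endonuclease ZC3H12A by 0.38 and the stabilising ELAVL1 by 0.17. The ELAVL1 call ended in 7 alternatives, upper-quartile scaling among them, the ZC3H12A call in the centred GC correction, and the KHSRP call in that correction with the replicate block. ZFP36, ZFP36L2 and HNRNPD were not called.

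The proteases known to shed CXCL16 and CX3CL1, ADAM10 and ADAM17, were lower by 0.28 and 0.22 on the log2 scale. The partner proteins of ADAM17 were higher, RHBDF1 by 0.33 and RHBDF2 by 0.69. Both ADAM calls were lost without WT replicate 2 or 3 and with either form of GC correction, and their sign turned with the planned form. Besides the GC fits, the ADAM17 call ended in 10 alternatives. These were DESeq2 size factors, the DESeq2 Wald test, library sizes recomputed after the filter, and leaving out any 1 library except MIEN1_KO replicate 2. The RHBDF1 call ended with both forms of GC correction. TIMP3, an ADAM17 inhibitor, had 0 counts in WT and 2 in MIEN1_KO.

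Over the neighbours of all the genes, 36 in number, 5 were called higher and 4 lower, with a median log2 fold change of -0.05, where 21.0% and 20.7% of all genes were called. The balance turned with the scaling, to 2 higher and 7 lower with upper-quartile factors and 13 higher and 1 lower with the planned GC correction. CIAPIN1, next to CX3CL1, rose by 0.33, and the nearest genes of the others, PLLP beside CX3CL1, GLTPD2 and MED11 beside CXCL16, AGFG1 and TRIP12 beside CCL20, and COPS8 and AGAP1-IT1 beside ACKR3, were not called.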

How the data were processed

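Poly-A RNA of 8 HT-29 libraries was sequenced. The authors deposited 1 table of raw counts per gene for each library; per the submitters' processing notes these involved TopHat2 2.0.9, HTSeq 0.6.1 and GRCh38. No source used here states strandedness or the handling of reads shared by paralogs. Symbols came from GENCODE 29, which held 45342 of the 48162 identifiers.

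Counts were filtered by filterByExpr, scaled by TMM and tested with edgeR 4.0.16 (robust quasi-likelihood, R 4.3.3), with Benjamini-Hochberg adjustment over 14228 genes; 33934 were set aside. Full library sizes were kept, a choice made after the counts of calls under both options were seen. SEs are those implied by the F statistic. CPM used TMM-scaled totals. The fit was checked on simulated data. Alternatives used DESeq2 1.42.0, limma 3.58.1, other filters and scalings, GC corrections and leaving out each library. Replicates are pools of 4 dishes within 1 group, so p-values measure the spread between such pools. The number of clones behind the knockout pools is not given.

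The genes and lists were chosen with earlier results of these data known. Named were the 10 genes, MIEN1, the 4 smallest p-values of each list, all genes of lists of up to 8, the nearest tested neighbours and the 5 profiles most like CXCR4; other names are marked in the text as chosen after their values were seen, and marker genes, small-count receptors and ligands, and further neighbours were also named that way. Promoter windows are from RefSeq (GRCh38.p14).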

Additional observations from a re-analysis of the deposited data

Results flagged for a closer look

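The single CXCR4 count of MIEN1_KO replicate 1, 0.0417 CPM, lay far from the other 3 knockout libraries, which are at 0. It is 1 read, and with the other libraries at 0 any single count would be flagged in this way.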

How the results depend on the processing

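CX3CL1 was too low for the filter of 50 counts in 4 libraries. The log2 fold change of CXCL8 was 1.52 with the planned GC correction, 1.52 with the replicate block and that correction, and 1.49 and 1.48 with the centred form. The planned GC correction, a loess on transcript GC, moved the median of all genes from -0.02 to 0.08 and gave 4146 genes higher and 1951 lower (1837 lower with the replicate block). A robust, centred form, added after this was seen because the planned curve also shifts the scale between libraries, gave 2810 higher and 2416 lower, and there the log2 fold change of CXCL16 was -0.23. Library sizes recomputed after the filter, also chosen after seeing the data and the way the fit was first run, gave 3134 higher and 2793 lower.

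Counts called moved as follows. CXCR4 transcription went from 2 to 4 in all 4 GC fits. Shedding went from 4 to 1 in the same fits. Neighbours went from 9 to 14 with the planned GC correction. Other ligands went from 1 to 2 with upper-quartile factors and in the DESeq2 Wald test, to 3 with no filter and to 0 with the filter of 50 counts. Other receptors went from 1 to 2 with no filter and with the replicate block plus the planned GC correction. Leaving out 1 library gave 11 to 17 for CXCR4 signalling, 2 to 4 for CXCR4 transcription, 1 to 2 for other ligands and 2 to 4 for shedding. ADAM10 turned to 0.017 and 0.015 with the planned GC correction, alone and with the block, and ADAM17 to 0.066 and 0.064, and to 0.0082 and 0.0074 in the centred form. ITCH turned to 0.079, 0.078, 0.019 and 0.019 in the same order, GRK6 to -0.00083 and -0.0014 in the centred form, and HNRNPD to 0.21 in the planned form. Over single genes named from the lists, 67 values lost their call with the sign kept, 38 gained one and 13 turned. The turned values are given above and are not among the 67. The cause was not tested.

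The replicate block alone gave 3002 higher and 2982 lower. Samples with the same number shared little (correlations -0.076, 0.20, 0.069 and 0.0092), and only number 2 was highest with its own, so the numbers were not taken to pair the samples. Levels per kb of the longest transcript in place of all exons kept CXCR4 first in WT, at 9.07 CPM per kb. CCL20, CXCL2 and CXCL6 rest on few counts, and the implied SE understates their error.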
